A study of Mus musculus with 2 samples.

Results

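The 8 chemokine genes Ccl2, Ccl7, Cxcl1, Cxcl2, Cxcl5, Cxcl10, Cxcl12 and Cx3cl1 were taken by name from 2 Drop-seq libraries of mouse small-intestinal fibroblasts grown in co-culture with crypts, the epithelial glands of the intestine in which stem cells reside. All 8 were among the 18309 genes listed in either library. The cells came from C57BL6 mice aged 10 weeks and grew in Organoid Growth Media. The Ptger4-ON library came from cultures given DMSO vehicle, which grew as spheroids per the labels. The Ptger4-OFF library came from cultures given ONO-AE3-208 at 10 µM every second day, an antagonist of the prostaglandin E2 receptor EP4 (gene Ptger4), which grew as budding organoids. Each library was 1 pool of 6 cultures, so no value between conditions has a replicate error and no test was possible. Intervals in square brackets are exact 95% intervals of counting error only, and cover no variation between cells, cultures or mice.

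Chemokines are small secreted proteins that bind heparan sulfate on cells and matrix and draw leukocytes along gradients through G protein-coupled receptors. In the gut wall, fibroblasts beside the crypts are a known source of chemokines, and the lining cells add their own. Ccl2 and Ccl7 attract monocytes through Ccr2, and Cxcl1, Cxcl2 and Cxcl5 attract neutrophils through Cxcr2. Cxcl10 is induced by interferons and attracts activated T cells through Cxcr3. Cxcl12 retains stem cells and leukocytes in their niches through Cxcr4, and Cx3cl1 (fractalkine) is made as a membrane-bound protein that proteases can shed.

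Several of the genes sit close together in the genome (RefSeq, build GRCm38.p6). Ccl2 lies at chr11:82035577-82037452 and Ccl7 at chr11:82045712-82047525, with 8259 bases between them. Cxcl5 (chr5:90759298-90761625), Cxcl1 (chr5:90891245-90893121), Cxcl2 (chr5:90903899-90905938) and Cxcl10 (chr5:92346638-92348889) share chromosome 5, and 10777 bases separate Cxcl1 from Cxcl2. Cxcl12 lies at chr6:117168535-117181368 and Cx3cl1 at chr8:94772180-94782427. RefSeq promoter sequence was matched for 5 of the 8 genes (Cxcl1, Cxcl2, Cxcl10, Cxcl12 and Cx3cl1). The 250 bases before the start are printed, 5′ to 3′ on the strand of the gene, for the 3 genes that hold either of a pair of motifs searched on both strands, since genes known to answer to the same factors are read beside the chemokines. Capitals mark every match to GGGANNTTC, a core of many sites of the inflammatory factor NF-kB, and to GAAANNGAA, a core of many interferon-responsive sites, where N is any base.

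Cxcl1: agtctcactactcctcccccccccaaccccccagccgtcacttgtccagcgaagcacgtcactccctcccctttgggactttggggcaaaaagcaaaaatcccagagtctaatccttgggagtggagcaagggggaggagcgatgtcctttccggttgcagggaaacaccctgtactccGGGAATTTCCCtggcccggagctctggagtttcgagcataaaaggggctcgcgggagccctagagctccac
Cxcl2: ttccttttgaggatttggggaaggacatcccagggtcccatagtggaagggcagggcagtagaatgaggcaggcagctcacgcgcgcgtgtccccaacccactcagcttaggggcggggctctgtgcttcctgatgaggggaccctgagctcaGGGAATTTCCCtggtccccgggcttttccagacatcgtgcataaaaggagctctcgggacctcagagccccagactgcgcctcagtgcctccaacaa
Cxcl10: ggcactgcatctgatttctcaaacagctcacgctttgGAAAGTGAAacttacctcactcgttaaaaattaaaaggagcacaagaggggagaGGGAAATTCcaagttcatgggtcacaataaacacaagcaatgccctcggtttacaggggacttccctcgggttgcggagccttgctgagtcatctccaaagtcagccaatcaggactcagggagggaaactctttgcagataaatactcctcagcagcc

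These windows lie at chr5:90890995-90891244 (plus strand), chr5:90903649-90903898 (plus strand) and chr5:92348890-92349139 (minus strand). Cxcl1 and Cxcl2 carry the same GGGAATTTCCC, in which a match on each strand overlaps, ending 61 and 87 bases before the start. Cxcl10 holds GGGAAATTC from 159 to 151 bases and GAAAGTGAA from 213 to 205 bases before the start. No match to either motif on either strand was found in the windows of Cxcl12 and Cx3cl1. Of 32851 mouse promoter windows of 250 bases, 3.23% held the first motif and 7.13% the second. A match is a description of the letters and does not show that a factor binds there.

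The deposited tables held 7408303 unique molecular identifiers (UMIs, counts of captured mRNA molecules) in 908 cell barcodes of Ptger4-ON and 9490205 in 1599 barcodes of Ptger4-OFF. After filtering, 877 and 1560 cells remained, and no kept barcode occurred in both libraries. Clustering, from which all chemokine genes were left out, gave 589 and 1201 epithelial-like cells and 288 and 359 fibroblast-like cells. The fibroblast-like cells carried all 16 of 16 fibroblast markers and divided into an Mgp cluster (209 and 303 cells) and a Grem1 cluster (53 and 52 cells). Mgp encodes a matrix protein that inhibits calcification, and Grem1 encodes a BMP antagonist made by fibroblasts near the crypt base. A shallow Actg2 cluster (26 and 4 cells, median 1078.5 and 1303.5 UMIs) was kept among fibroblast-like cells but given no type. Leukocyte markers summed to 23.9 and 14.1 UMIs per 1000000 UMIs of the group (CPM) in fibroblast-like cells, led by Lyz2, and Ptprc, Cd3e, Cd79a and Kit were at 0. The 3 endothelial markers in the tables summed to 2.28 and 1.63 CPM.

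Stroma held nearly all molecules of 4 of the chemokines. Fibroblast-like cells carried 99.0% and 99.1% of the Ccl2 UMIs (Ptger4-ON, then Ptger4-OFF, throughout), 99.5% and 99.3% of Ccl7, 97.6% and 98.1% of Cxcl5 and 99.2% and 99.5% of Cxcl12. Cxcl1 was shared, with 76.4% and 83.6% in fibroblast-like cells, and so was Cxcl2, with 66.9% and 83.5%. Cxcl10 UMIs were few, 20 in Ptger4-ON and 101 in Ptger4-OFF, and fibroblast-like cells held 20% and 65.3% of them. In Ptger4-OFF 37 came from 1 fibroblast, and without the top cell of each class 29 fibroblast and 32 epithelial UMIs remained. Cx3cl1 was the epithelial member, with 5.75% and 3.64% of its UMIs in fibroblast-like cells.

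Free RNA sets a floor for such shares. The fibroblast marker list reached 0.277% and 0.322% of its fibroblast level in epithelial-like cells. Ccl2 reached 0.306% and 0.215%, Ccl7 0.157% and 0.170%, and Cxcl12 0.269% and 0.130%, so their few epithelial UMIs lay at about that floor and are read as background. Cxcl5 reached 0.792% and 0.462%, on 13 and 10 epithelial UMIs. Cxcl1, at 9.77% and 4.73%, and Cxcl2, at 15.7% and 4.78%, stood above it in both libraries. With a gene counted as measured at 20 UMIs or more over both sides, 6 of 8 measured members were at least 2-fold higher in fibroblast-like than in epithelial-like cells in Ptger4-ON and 7 of 8 in Ptger4-OFF, against 17.3% and 18.2% of all measured genes. Cx3cl1 was the member at least 2-fold lower in both libraries, as were 27% and 27.3% of all genes.

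**Figure D1:**
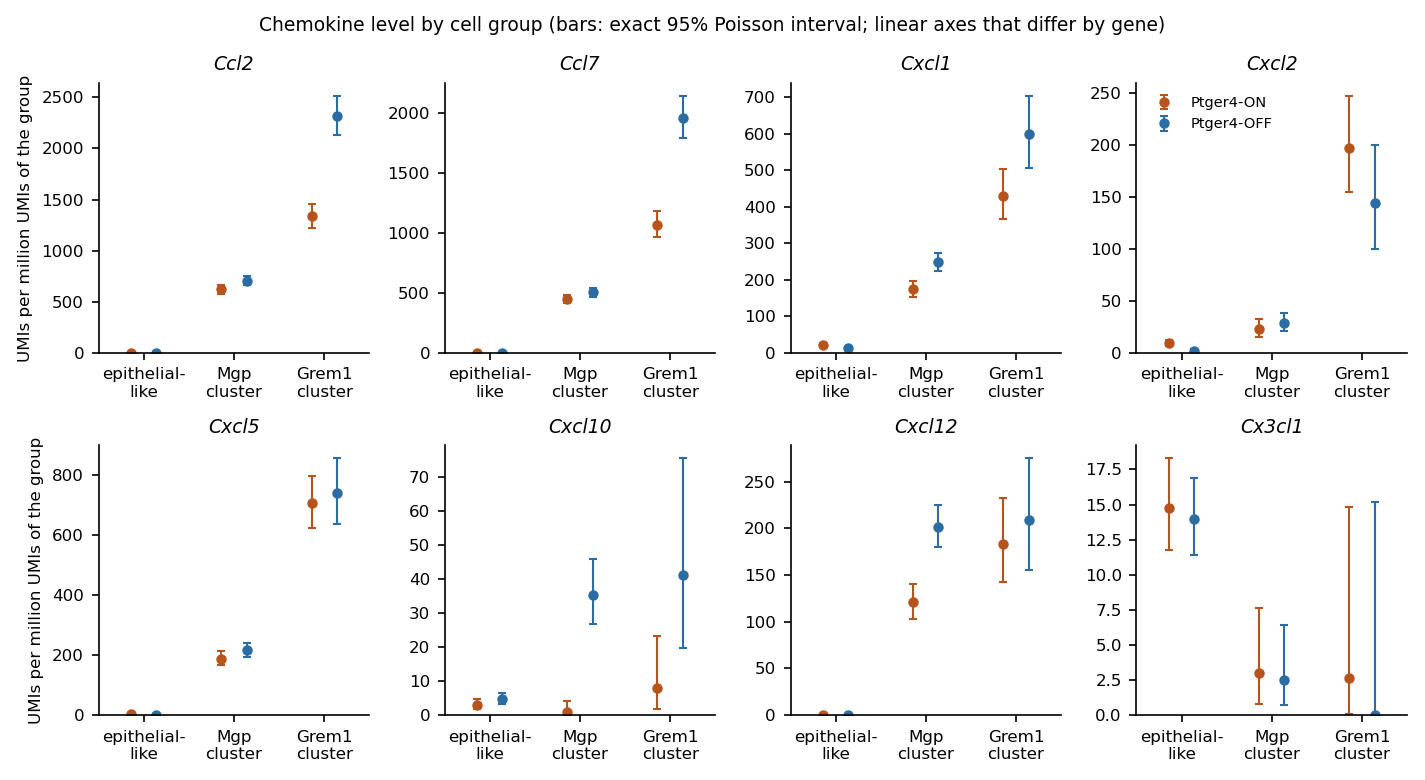
Level of each chemokine gene (y axes, UMIs per 1000000 UMIs of the group, linear from 0, scale differing by gene) in epithelial-like cells, the Mgp cluster and the Grem1 cluster, in Ptger4-ON (orange) and Ptger4-OFF (blue), with exact 95% Poisson intervals as bars. Ccl2, Ccl7, Cxcl1, Cxcl2 and Cxcl5 are highest in the Grem1 cluster of both libraries, Cxcl12 is similar in both fibroblast clusters of Ptger4-OFF, and Cx3cl1 is highest in epithelial-like cells.

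The first comparison asked how the chemokines divide between the fibroblast types. The Grem1 cluster carried more mRNA of the monocyte and neutrophil attractants than the Mgp cluster in both libraries. At least 2-fold higher were 5 of 6 measured members in Ptger4-ON, against 4.36% of 8184 measured genes, and 5 of 7 in Ptger4-OFF, against 4.32% of 8270. In each library these were Ccl2, Ccl7, Cxcl1, Cxcl2 and Cxcl5. The median log2 ratio of the measured members was 1.28 and 1.71, and that of all measured genes -0.04 and -0.06.

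Ccl2, the main monocyte attractant, stood at 620 CPM [578 to 663] in the Mgp cluster and 1338 CPM [1224 to 1460] in the Grem1 cluster of Ptger4-ON, a ratio of 2.16 [1.93 to 2.41]. In Ptger4-OFF it stood at 706 [666 to 749] and 2316 CPM [2129 to 2515], a ratio of 3.28 [2.96 to 3.63]. Ccl7, its neighbour on chromosome 11, stood at 446 and 1069 CPM in Ptger4-ON, a ratio of 2.40 [2.11 to 2.72]. In both libraries the Grem1 interval lay above the Mgp interval for each of these genes. In Ptger4-OFF Ccl7 stood at 503 and 1959 CPM, a ratio of 3.89 [3.47 to 4.36].

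Among the neutrophil attractants, Cxcl5 stood at 188 CPM in the Mgp and 705 CPM in the Grem1 cluster of Ptger4-ON (3.76 [3.15 to 4.48]). In Ptger4-OFF it stood at 216 and 739 CPM (3.43 [2.84 to 4.11]). Without the cell with most UMIs in each cluster these ratios were 3.24 and 3.18. In the Grem1 cluster the 10 cells with most UMIs held 76.2% and 74.4% of the Cxcl5 total. Cxcl1 stood at 174 and 431 CPM (2.47 [2.01 to 3.03]) and at 249 and 599 CPM (2.41 [1.98 to 2.92]). Both genes were higher in the Grem1 cluster by much the same ratio in either library. Cxcl2 stood at 23.0 and 197 CPM in Ptger4-ON (8.57 [5.56 to 13.5]), but 59 of the 74 Grem1-cluster UMIs came from 1 cell. Without the cell with most UMIs in each cluster the Cxcl2 ratio was 3.17 in Ptger4-ON and 3.83 in Ptger4-OFF, where the full ratio was 4.97 [3.11 to 7.88]. Leaving out such cells moved the Cxcl1 ratio of Ptger4-ON to 1.98, just under 2-fold.

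Cxcl12, the niche chemokine, was under 2-fold apart between these clusters. In Ptger4-ON it stood at 121 CPM [103 to 141] in the Mgp and 184 CPM [143 to 232] in the Grem1 cluster, a ratio of 1.52 [1.13 to 2.02]. Without the top cell, which held 22 of the 69 Grem1-cluster UMIs, that ratio was 1.09. In Ptger4-OFF it stood at 201 and 209 CPM, a ratio of 1.04 [0.76 to 1.40]. The bulk of Cxcl12 molecules therefore lay in the larger Mgp cluster, with 163 and 320 UMIs against 69 and 51. Cxcl10 in Ptger4-OFF stood at 35.2 and 41.1 CPM, a ratio of 1.17 [0.53 to 2.31].

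The way a cell was assigned to a type moved these ratios. When a fibroblast was typed only by whether it held more Grem1 or more Mgp UMIs, 109 and 120 cells counted as Grem1 cells, of which 46 and 66 lay in the Mgp cluster. The log2 ratio of Ccl2 was then 0.43 in both libraries and that of Ccl7 0.64 and 0.77, below 2-fold. That of Cxcl12 was 0.29 and 0.80, so that in Ptger4-OFF it lay level with Ccl7 on this typing. Members at least 2-fold apart numbered 3 in Ptger4-ON (Cxcl1, Cxcl2 and Cxcl5) and 2 in Ptger4-OFF (Cxcl2 higher, Cxcl10 lower). The Grem1 cluster also differed from the Mgp cluster in other markers. Leukocyte markers summed to 61.2 and 45.2 CPM in it and to 14.1 and 9.44 CPM in the Mgp cluster, with Lyz2 at 14 and 10 UMIs and Ptprc and Csf1r at 0 in the Grem1 cluster. The part of these markers in the chemokine ratios was not tested.

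**Figure D2:**
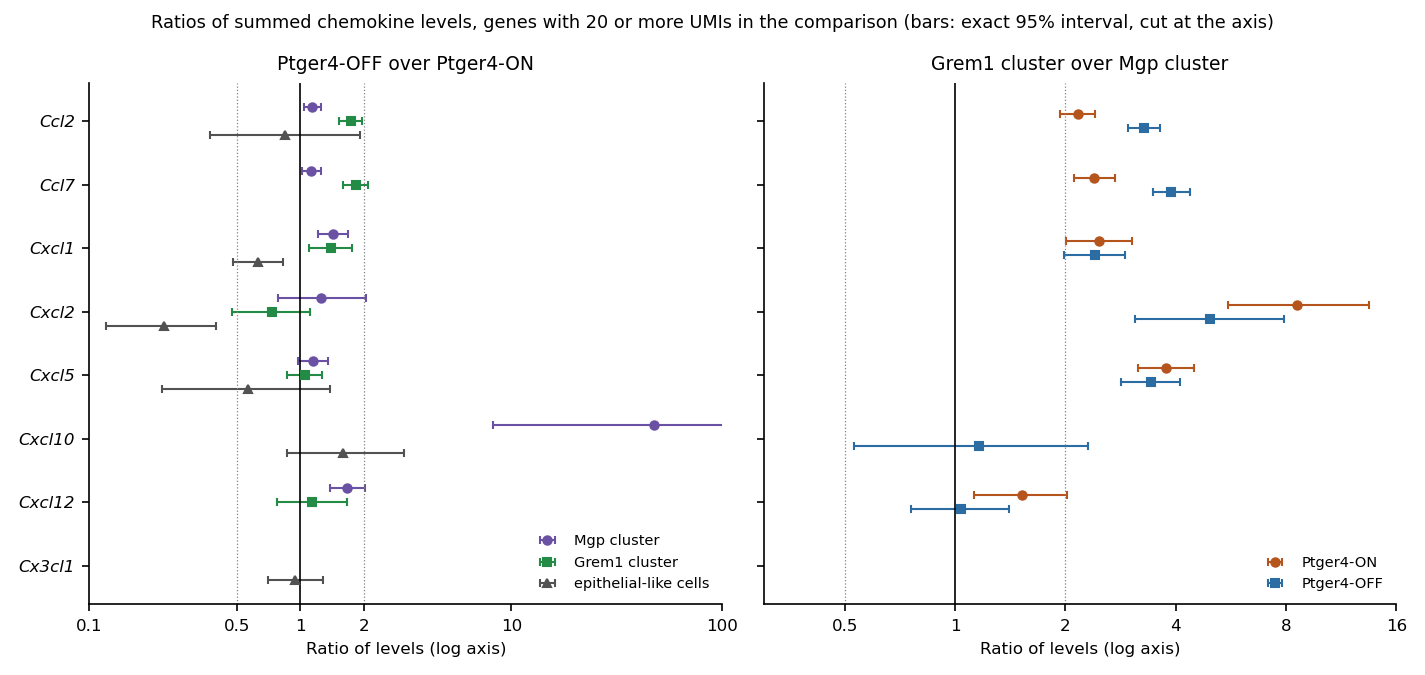
Ratios of summed levels (x axes, log scale, dotted lines at 0.5 and 2) for members with at least 20 UMIs in a comparison, with exact 95% intervals as bars that end at the axis. Left, Ptger4-OFF over Ptger4-ON in the Mgp cluster, the Grem1 cluster and epithelial-like cells, where Cxcl10 of the Mgp cluster stands far to the right at 47.5 and Cxcl2 of epithelial-like cells to the left at 0.225. Right, Grem1 over Mgp cluster in each library, where 5 genes lie beyond 2 in both.

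Single cells showed how unevenly these molecules were spread. In the Mgp cluster Ccl2 was seen in 89 of 209 and 138 of 303 cells, and the 10 cells with most UMIs held 51.6% and 33.7% of the total. In the Grem1 cluster it was seen in 35 of 53 and 36 of 52 cells, and the 10 top cells held 76.7% and 75.7%. As 10 cells are a larger part of the smaller Grem1 cluster, the top-cell shares of the clusters cannot be compared. Cells differ in depth, so shares were also taken after thinning cells to 1000 UMIs and leaving out shallower ones. This left out 17 and 8 cells of the Mgp cluster, 1 and 2 of the Grem1 cluster and 58 and 48 epithelial-like cells, and shares are of the cells that remained. Ccl2 was then seen in 28.6% [22.4 to 35.6] and 26.1% [21.2 to 31.5] of Mgp-cluster cells and in 44.2% [30.5 to 58.7] and 54.0% [39.3 to 68.2] of Grem1-cluster cells, with exact Clopper-Pearson intervals. In epithelial-like cells, which give the background of free RNA, the share was 0.565% and 0.173%. Median depths were 5080 and 4452 UMIs in the Mgp cluster, 5312 and 4662 in the Grem1 cluster and 4633 and 4158 in epithelial-like cells. The higher Ccl2 level of the Grem1 cluster thus went with a larger share of cells in which it was seen. In Ptger4-ON the intervals of these thinned shares overlapped.

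Of Ccl2, Ccl7, Cxcl1, Cxcl2 and Cxcl5, at least 1 was seen at this depth in 45.3% and 46.1% of Mgp-cluster cells and in 73.1% and 76.0% of Grem1-cluster cells. At least 3 of the 5 were seen in 6.77% and 7.12% of Mgp-cluster cells and in 30.8% and 30% of Grem1-cluster cells. Fibroblasts with a Ccl2 UMI were more often those with a Ccl7 UMI. In the Mgp cluster Ccl7 was seen in 45.5% of cells with Ccl2 and 13.1% of cells without it in Ptger4-ON, and in 51.9% and 15.6% in Ptger4-OFF. In the Grem1 cluster the shares were 69.6% and 17.2%, then 77.8% and 30.4%. Cxcl12 had no such link to Ccl2: in the Mgp cluster it was seen in 9.09% of cells with Ccl2 and 10.9% without it, then in 11.7% and 16.5%. These shares are descriptions over cells of the same library, with no test.

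**Figure D3:**
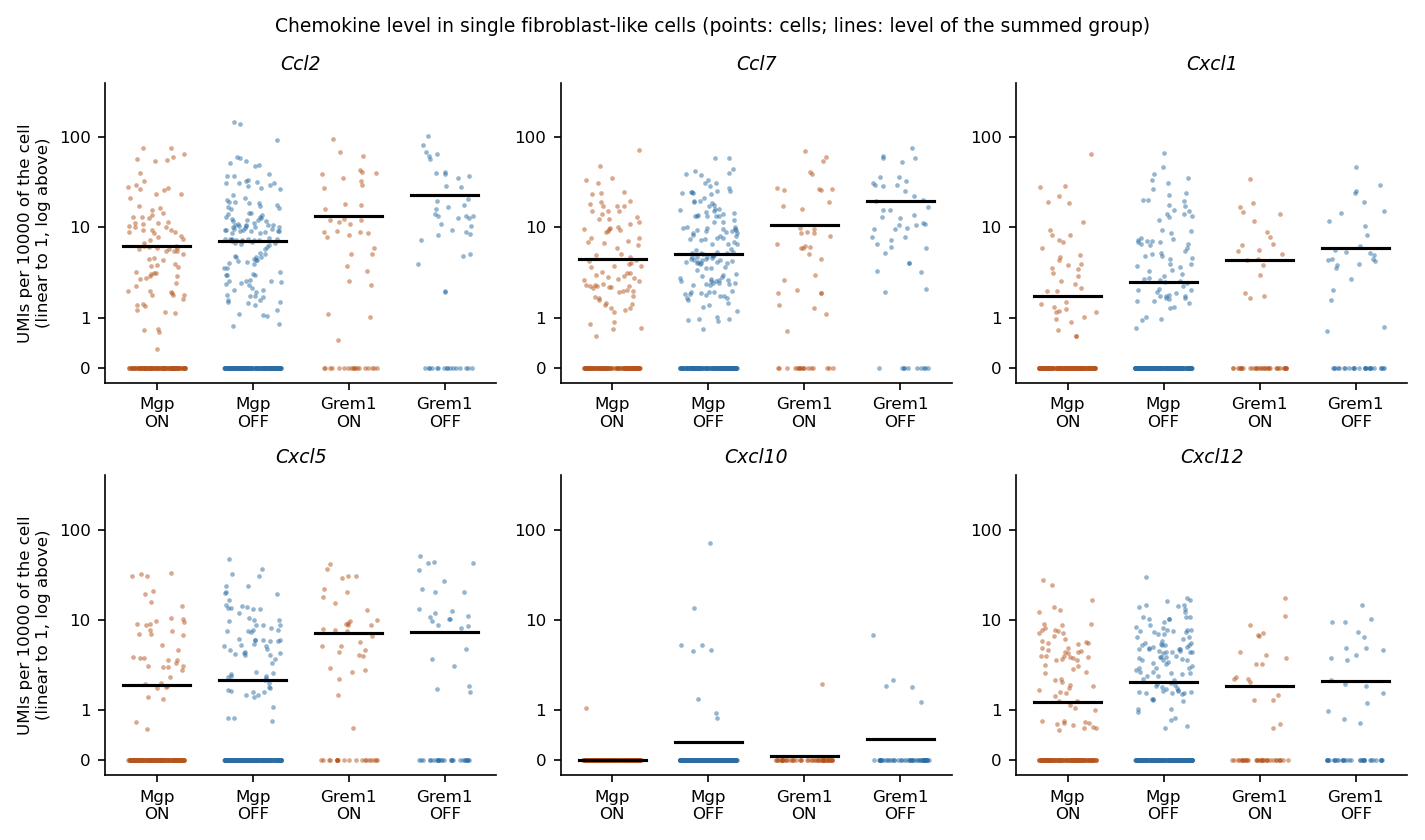
Level of 6 chemokines in single cells of the Mgp and Grem1 clusters (y axes, UMIs per 10000 UMIs of the cell, linear to 1 and logarithmic above), with each point a cell, Ptger4-ON in orange, Ptger4-OFF in blue, and black lines at the level of the summed group. Many cells sit at 0 for every gene, and Cxcl10 in the Mgp cluster of Ptger4-OFF rests on 9 cells, 1 of them far above the rest.

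The second comparison asked how stromal chemokines differed between cultures with EP4 signalling left on and blocked. The Ptger4 transcript itself was counted 149 and 223 times in epithelial-like cells and 2 and 1 times in fibroblast-like cells, and an antagonist of the receptor protein need not alter it. Over all fibroblast-like cells 1 of 7 measured members was at least 2-fold apart, Cxcl10, against 3.52% of all measured genes. In the Mgp cluster it was again 1 of 7, Cxcl10, against 3.77%. In the Grem1 cluster it was 0 of 6, against 8.06%, so that most stromal members differed by less than 2-fold between the libraries.

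Ccl2 and Ccl7 were somewhat higher in Ptger4-OFF. In the Mgp cluster the ratios of Ptger4-OFF over Ptger4-ON were 1.14 [1.04 to 1.25] for Ccl2 and 1.13 [1.01 to 1.26] for Ccl7. In the Grem1 cluster they were 1.73 [1.53 to 1.96] and 1.83 [1.60 to 2.10]. Weighting every cell equally gave a log2 ratio of 0.44 for Ccl2 and 0.62 for Ccl7 in the Grem1 cluster, and typing by Grem1 and Mgp UMIs alone gave 0.27 and 0.35. The Grem1 clusters of the libraries were not alike in other genes: cycling markers summed to 572 and 69.8 CPM, pericyte markers summed to 58.5 and 16.4 CPM, and Mgp stood at 239 and 28.7 CPM. The part of these differences in the Ccl2 and Ccl7 ratios was not tested, nor was the difference between the ratios of the clusters.

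Cxcl1 was higher in Ptger4-OFF in both fibroblast clusters, by 1.43 [1.21 to 1.69] in the Mgp cluster and 1.39 [1.10 to 1.75] in the Grem1 cluster. Typing by Grem1 and Mgp UMIs alone gave it a log2 ratio of 1.1 in Mgp-typed and 0.02 in Grem1-typed cells. Thinned to equal depth, it was seen in 8.85% [5.24 to 13.8] and 13.6% [9.87 to 18.0] of Mgp-cluster cells, shares whose intervals overlap. Cxcl5 showed little difference, with ratios of 1.15 [0.98 to 1.36] and 1.05 [0.86 to 1.27]. For Cxcl2 the ratio was 1.26 [0.78 to 2.05] in the Mgp cluster and 0.73 [0.47 to 1.11] in the Grem1 cluster, and without the top cell of each library the Grem1 ratio turned to 1.75. Its stromal direction therefore rests on single cells.

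Cxcl12 was higher in the Mgp cluster of Ptger4-OFF, at 201 CPM [180 to 225] against 121 CPM [103 to 141], a ratio of 1.67 [1.38 to 2.02]. This sum did not rest on 1 cell, as the ratio was 1.65 without the top cells. The thinned share of cells with Cxcl12 was 10.4% [6.48 to 15.6] and 15.3% [11.3 to 19.9], and with equal weight for each cell the log2 ratio was 0.25 in place of 0.73. The size of the difference thus depended on how deep and shallow cells were weighted. In Ptger4-OFF, Mgp-cluster cells with a Ptgs2 UMI (cyclooxygenase-2, the enzyme of prostaglandin synthesis) had Cxcl12 at 232 CPM [205 to 261] and those without at 109 CPM [78.7 to 146], while in Ptger4-ON both stood at 121 and 119 CPM. Cells with Ptgs2 were also deeper, with medians of 5221.5 and 3496 UMIs in Ptger4-OFF and 5445 and 2440.5 in Ptger4-ON. In the Grem1 cluster the Cxcl12 ratio between libraries was 1.14 [0.78 to 1.66], and typing by Grem1 and Mgp UMIs alone gave a log2 ratio of 0.99.

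Cxcl10 had the widest ratio between the libraries, on few molecules and fewer cells. The Mgp cluster held 1 UMI in Ptger4-ON and 56 UMIs in Ptger4-OFF (47.5-fold [8.19 to 1910]), but 37 of the 56 came from 1 cell. The other 19 UMIs came to 12.0 CPM of the cluster, which held 9 cells with the gene. The Grem1 cluster held 3 UMIs, all in 1 cell, and 10 UMIs in 5 cells. Over all fibroblast-like cells Cxcl10 was seen in 2 of 288 and 14 of 359 cells, and without the top cell of each library 1 and 29 UMIs remained.

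Other interferon-stimulated genes were higher in the same library of fibroblasts. Of 34 genes on an interferon list, 27 were measured in fibroblast-like cells, 26 of them had a ratio above 1 and 9 were at least 2-fold higher, against 1.63% of all measured genes. None was at least 2-fold lower, and the median log2 ratio was 0.67, against 0.01 over all genes. Rsad2, an antiviral enzyme, went from 1 to 23 UMIs, and Ifit1, which binds foreign RNA, from 13 to 55 UMIs (4.04-fold [2.18 to 8.07]). Ifit3, a partner of Ifit1, went from 14 to 55 UMIs (3.75-fold [2.06 to 7.31]) and Usp18, which removes Isg15 from proteins, from 9 to 30 UMIs (3.19-fold [1.47 to 7.63]). The Ifit1 UMIs lay in 10 and 23 cells and those of Ifit3 in 10 and 22, more than the 2 and 14 of Cxcl10. Those of Rsad2 lay in 1 and 12. The summed list stood at 814 and 1292 CPM in fibroblast-like cells. In Ptger4-OFF it stood at 2673 CPM in the 14 fibroblasts with Cxcl10 and 1218 CPM in those without. In the epithelial-like cells the list went the other way, with 0 of 25 measured genes at least 2-fold higher, 4 lower (against 2.98% and 4.3% of all measured genes), a median log2 ratio of -0.49 and sums of 496 and 402 CPM. This did not hold within each epithelial cluster: the median log2 ratio was 0.25 in the Clu cluster, where 15 of 21 measured genes had a ratio above 1, -0.05 in the cycling cluster and -0.21 in the Aqp4 cluster. The Clu cluster, in which the list was high, was a smaller share of the epithelium in Ptger4-OFF, as given with Cxcl1 below.

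The NF-kB list, which holds targets of the factor that drives many chemokine promoters, was mixed in fibroblast-like cells. There 26 of its 32 genes were measured, 9 with a ratio above 1 and 17 below 1, and the median log2 ratio was -0.13. None was at least 2-fold higher, a limit that Cxcl1, at 1.30, did not reach either. Saa3 went from 9298 to 13134 UMIs and Vcam1 from 67 to 116 UMIs. At least 2-fold lower were 2, Il11 and Nfkbie, against 1.89% of all measured genes. Il11, a cytokine of stromal repair, went from 59 UMIs in 11 cells to 1 UMI. Of Il11, 55 UMIs in Ptger4-ON lay in 8 cells of the Grem1 cluster. Il6 and Lif, cytokines of the same family, stood at 59.8 and 29.9 CPM (0.50 [0.35 to 0.70]) and at 138 and 71.3 CPM (0.52 [0.41 to 0.64]). The Mgp cluster held 48 and 41 UMIs of Il6 and the Grem1 cluster 57 and 13, with 18 of the 57 in 1 cell. For Lif these were 182 and 113 UMIs, then 60 and 18. Summed over fibroblast-like cells, these cytokines were thus lower in Ptger4-OFF while Ccl2, Ccl7 and Cxcl1 were higher. The Grem1 cluster was 18.4% and 14.5% of fibroblast-like cells, and its part in the class ratios of the cytokines was not tested. In epithelial-like cells, where Cxcl1 and Cxcl2 were lower, 24 genes of the list were measured, of which 1 was at least 2-fold higher (Tnfaip2, 2 and 21 UMIs) and 8 were lower, against 2.98% and 4.3% of all measured genes. Tnf, the inflammatory cytokine, stood at 20.1 and 5.79 CPM there (0.287 [0.198 to 0.410]) and Ptgs2 at 14.2 and 1.97 CPM (0.139 [0.074 to 0.243]). Within clusters fewer genes of the list were at least 2-fold lower. They were 2 of 19 measured in the Clu cluster, 1 of 17 in the cycling and 2 of 16 in the Aqp4 cluster. None was higher there, and 10.5%, 3.49% and 6.02% of all measured genes were apart in either direction. The median log2 ratios were -0.26, -0.28 and -0.30. The part of the smaller Clu cluster of Ptger4-OFF in the class counts was not tested.

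The third comparison concerned the epithelium. There 1 of 6 measured members was at least 2-fold apart between libraries, Cxcl2, against 7.28% of all measured genes. Epithelial-like Cxcl2 stood at 9.35 CPM [6.99 to 12.3] in Ptger4-ON and 2.10 CPM [1.20 to 3.42] in Ptger4-OFF, a ratio of 0.225 [0.12 to 0.40]. These were 52 UMIs in 16 of 589 cells and 16 UMIs in 11 of 1201 cells, and without the top cells the ratio was 0.272. Cxcl1 stood at 22.1 CPM [18.4 to 26.4] and 13.9 CPM [11.4 to 16.9], a ratio of 0.63 [0.48 to 0.82]. It was seen in 55 and 72 cells, and after thinning in 2.82% [1.59 to 4.62] and 1.21% [0.665 to 2.03]. Both neutrophil attractants were thus lower in the epithelium of Ptger4-OFF, while Cxcl1 was higher in its stroma.

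Cxcl1 was not spread evenly over the epithelium. The Clu cluster, led by Clu, Msln and Ly6a, genes of fetal-like and regenerating gut epithelium, made up 31.2% and 6.74% of epithelial-like cells. Within it Cxcl1 stood at 40.0 CPM [31.5 to 50.1] and 45.6 CPM [31.7 to 63.4], against 12.8 and 10.4 CPM in all other epithelial-like cells. Of the interferon list, 11 of 20 measured genes were at least 2-fold higher in the Clu cluster than in other epithelial-like cells of Ptger4-ON, and of the NF-kB list 8 of 20. In Ptger4-ON, 2 of 3 measured members were at least 2-fold higher in the Clu cluster, Cxcl1 (3.12 [2.14 to 4.58]) and Cxcl2 (2.63 [1.47 to 4.78]), as were 8.91% of all genes. Without the cell with most UMIs on each side, chosen after the values were seen, the ratio was 2.82 for Cxcl1 but 1.47 for Cxcl2, as 17 of its 30 Clu-cluster UMIs came from 1 cell. In Ptger4-OFF it was 1 of 3, Cxcl1 (4.39 [2.84 to 6.67], and 3.70 without the top cells), against 10.4%. Cx3cl1 did not differ in this way, with ratios of 0.95 [0.57 to 1.53] and 0.83 [0.37 to 1.63].

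Within clusters, the Ptger4-OFF over Ptger4-ON ratio of Cxcl1 was 1.14 [0.74 to 1.72] in the Clu cluster, 1.00 [0.57 to 1.76] in the cycling cluster and 0.57 [0.30 to 1.10] in the Aqp4 cluster. When the Ptger4-OFF levels of the 6 epithelial clusters were averaged with the cluster weights of Ptger4-ON, a calculation chosen after the values were seen, epithelial Cxcl1 came to 22.7 CPM and the ratio to 1.03. The lower Cxcl1 of the class went with the smaller Clu cluster. Cxcl2 remained lower on the same weights, at 3.26 CPM and a ratio of 0.349. Its ratio was 0.41 [0.12 to 1.07] in the Clu cluster, on 30 and 5 UMIs, and so rests on the same cell. In the cycling cluster it was 0.28 [0.097 to 0.72], on 16 and 7 UMIs. In the Clu cluster 1 of 3 measured members was at least 2-fold apart between libraries, against 10.5% of all genes, and in the cycling cluster 1 of 4, against 3.49%, each time Cxcl2. In the Aqp4 cluster it was 0 of 2, against 6.02%.

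**Figure D4:**
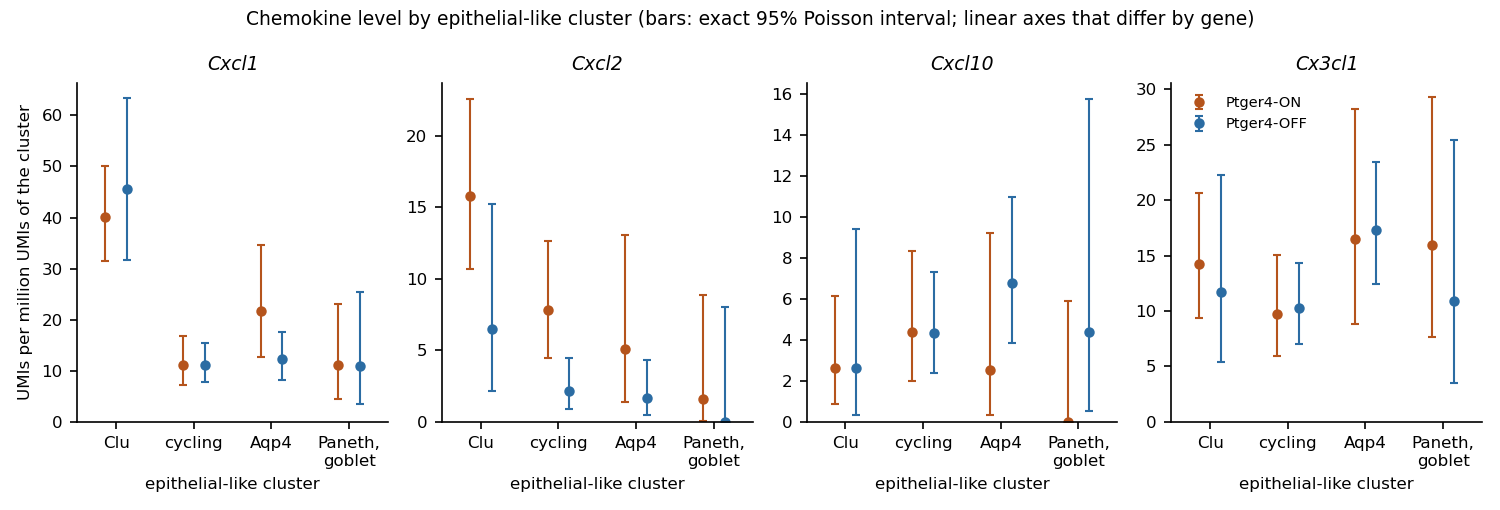
Levels of Cxcl1, Cxcl2, Cxcl10 and Cx3cl1 (y axes, UMIs per 1000000 UMIs of the cluster, linear from 0, scale differing by gene) in 4 epithelial-like clusters of Ptger4-ON (orange) and Ptger4-OFF (blue), with exact 95% Poisson intervals as bars. Cxcl1 is highest in the Clu cluster of both libraries, at 40.0 and 45.6, and Cx3cl1 intervals overlap across all 4 clusters.

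Cx3cl1 stood at close epithelial levels in the libraries. It stood at 14.8 CPM [11.7 to 18.3] and 13.9 CPM [11.4 to 16.9], a ratio of 0.94 [0.70 to 1.28], with 82 UMIs in 63 cells and 106 UMIs in 99 cells. No cell held more than 5 of its UMIs. Among clusters it was 14.2 and 11.7 CPM in the Clu cluster, 9.73 and 10.2 CPM in the cycling cluster, 16.5 and 17.3 CPM in the Aqp4 cluster and 15.9 and 10.9 CPM in the Paneth- and goblet-like cluster. The highest level was in the enterocyte-like cluster, at 66.1 CPM [34.2 to 116] in 15 cells and 23.8 CPM [13.8 to 38.1] in 97 cells, where 5 of the 12 UMIs in Ptger4-ON came from 1 cell. The intervals of the other 4 clusters overlapped in each library, and in Ptger4-OFF the enterocyte-like interval overlapped each of these as well. The proteases Adam10 and Adam17, which shed Cx3cl1, were on a list of 13 shedding, cleavage and binding genes of which 8 were measured in epithelial-like cells. There 2 were at least 2-fold higher in Ptger4-OFF and 0 lower, against 2.98% and 4.3% of all measured genes. Of these 2, Dpp4, a protease that clips Cxcl10 and Cxcl12, went from 39.9 to 80.0 CPM (2.0 [1.71 to 2.35]). The other, Hspg2, a heparan sulfate proteoglycan, went from 2.16 to 4.34 CPM, on only 12 and 33 UMIs. In each of the Clu, cycling and Aqp4 clusters, 0 of 7 measured genes of this list were at least 2-fold apart. Of all measured genes 10.5%, 3.49% and 6.02% were. The part of the cluster shares in the class ratios of these genes was not tested.

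Epithelial Cxcl10 was sparse and differed by less than its counting error. It stood at 2.88 CPM [1.65 to 4.67] and 4.6 CPM [3.21 to 6.40], a ratio of 1.60 [0.86 to 3.09], on 16 UMIs in 10 cells and 35 UMIs in 24 cells. The Aqp4 cluster of Ptger4-OFF held 16 of these UMIs in 10 cells. In fibroblast-like cells of Ptger4-ON the level was 2.28 CPM on 4 UMIs, so the stromal and epithelial levels lay together in that library. Barcodes over 50000 UMIs (16 and 6, all epithelial-like) bore on these sparse values: without them the log2 ratio was 1.15 for Cxcl10, -1.11 for Cxcl5, -0.78 for Cxcl1 and -2.54 for Cxcl2.

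Other chemokine genes, from a list of 30, divided between the tissues in their own way. The list had 15 genes in the tables, of which 7 were measured in epithelial-like cells, 1 at least 2-fold higher in Ptger4-OFF and 2 lower, against 2.98% and 4.3% of all measured genes. Cxcl16, a membrane-bound chemokine like Cx3cl1, stood at 110 and 32.5 CPM (0.295 [0.253 to 0.343]), and at the Ptger4-ON cluster weights the ratio was 0.661. In Ptger4-ON it stood at 267 CPM in the Clu cluster and 28.7 CPM in other epithelial-like cells. Ccl25, which draws T cells to the small intestine, went the other way, from 82.0 to 201 CPM (2.45 [2.20 to 2.72], and 1.88 at the Ptger4-ON cluster weights), although 1 cell held 121 of its 456 UMIs in Ptger4-ON. Ccl6 stood at 18.0 and 4.08 CPM (0.227 [0.146 to 0.342]), on 100 UMIs in 19 cells, 22 of them in 1 cell, and 31 UMIs in 13 cells. Ccl28, a mucosal chemokine, stood at 16.9 and 22.4 CPM (1.32 [1.02 to 1.72]). For Ccl6 and Ccl28 no ratio at fixed cluster weights was calculated. In fibroblast-like cells 5 of the list were measured and 1 was at least 2-fold higher, against 1.63% of all measured genes, namely Ccl5, whose 59 UMIs in Ptger4-OFF included 58 in 1 cell. Ccl8, which binds receptors shared with Ccl7, stood at 15.6 and 5.03 CPM in the Mgp cluster (0.32 [0.12 to 0.76]), on 21 and 8 UMIs. In the Grem1 cluster it stood at 18.6 and 53.4 CPM (2.87 [1.06 to 8.49]), on 7 and 13 UMIs.

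Few UMIs of receptors for these ligands were counted in the cultured cells. Ccr2, Cxcr3 and Cxcr4 were not among the genes listed in either library, so no level is given for them. Of 23 receptor genes on the list, 9 were in the tables and Ackr3, a decoy receptor that takes up Cxcl12, was the 1 measured between libraries in fibroblast-like cells. It held 25 and 19 UMIs there (0.73 [0.38 to 1.37]) and 0 and 3 in epithelial-like cells. Cxcr2 held 0 and 0 UMIs in fibroblast-like and 2 and 0 in epithelial-like cells, Ccr1 held 1 and 2, then 0 and 1, and Cx3cr1 held 2 and 0, then 1 and 0. For Cxcr2 in fibroblast-like cells a count of 0 allows up to 1.71 and 1.63 CPM.

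Genes with the most similar pattern were sought by Pearson r of log2(CPM + 10) over the 14 cluster and library sums with at least 20 cells, among 10136 genes. The points share libraries, and the divide between stroma and epithelium sets most of each value, so these are descriptions. Ccl2 and Ccl7 were each other's nearest gene (r = 0.999), followed by Igf1, a growth factor, and Ctsk, a collagen-degrading protease. Cxcl5 lay nearest to Igf1, Ccl7 and Ccl2 (0.992 to 0.995). Cxcl12 lay nearest to Tmem45a, Ms4a4d and Map1a (0.997 to 0.998) and Cxcl1 to AI413582, Wls, which exports Wnt proteins, and Phf11d (0.968 to 0.974). Cxcl2 lay nearest to Mmp10, a matrix protease (0.956), Isg15 and Foxf1. For Cxcl10 the highest r was 0.815, with Atg10. Other members were among the 3 nearest genes of Ccl2, Ccl7 and Cxcl5.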

How the data were processed

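The authors deposited a table per library of counts, whole numbers per gene and barcode with no normalization, for 2 Drop-seq libraries. That a count is a UMI follows from the protocol, per the labels. STAR 2.6 and the build mm10 are listed in the submitters' processing notes. How reads were counted, with which annotation, and how barcodes were chosen is not given in the sources used here. Barcodes ending in N (96 in Ptger4-ON, 152 in Ptger4-OFF) were kept as they stood.

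A barcode was kept if it had 300 genes or more and a mitochondrial share of 20% or less (882 and 1564). Scrublet called 5 and 4 doublets, which were removed, so undetected doublets may remain, and cells with both epithelial and fibroblast markers (2 and 6) were left out as an alternative. Both libraries were clustered together in scanpy 1.11.5 (Python 3.11.15, Leiden resolution 0.5, igraph 0.11.9, 30 components of 2000 variable genes, 15 neighbours) without chemokine genes, and classes were named from marker lists. The shallow Actg2 cluster got no fibroblast type, a choice made after the data were seen.

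UMIs were summed per gene, cluster and library and divided by the summed total (CPM, per 1000000). CPM has an exact Poisson and a ratio an exact conditional binomial interval. Genes with at least 20 UMIs over both sides count as measured, and 2-fold as apart. Log2 ratios add 0.5 to each count. The limit for a count of 0 uses 3 counts. The ratio step was tested on simulated counts. TMM and median-of-ratios factors, 2 of the alternatives, came from edgeR 4.0.16 (R 4.3.3). With 1 library per condition no p-values were made.

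Members, gene lists (other chemokines, receptors, NF-kB targets, interferon-stimulated genes, shedding, cleavage and binding genes) and comparisons were chosen with earlier results of these data known. Named genes were the members, up to 4 measured genes of each list with the largest ratio in a comparison, receptors of the members and the 3 genes most like each member. The genes most like Cx3cl1 are not reported here. Ptger4 and the marker genes are named beside them.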

Additional observations from a re-analysis of the deposited data

Results flagged for a closer look

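Cxcl1 went in opposite directions in the tissues of the same cultures. The ratio of Ptger4-OFF over Ptger4-ON was 1.30 [1.14 to 1.48] in fibroblast-like cells and 0.63 [0.48 to 0.82] in epithelial-like cells. With 1 library per condition this difference was not tested. At the epithelial cluster weights of Ptger4-ON the epithelial ratio was 1.03.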

How the results depend on the processing

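No paired analysis was possible because each condition had 1 library. Of the counts of members at least 2-fold apart under 17 alternatives, 92 stayed within 1.5 times the count reported and 10 did not. With fibroblasts typed by Grem1 and Mgp UMIs alone, the count was 3 for the Mgp cluster between libraries (Cxcl1, Cxcl2 and Cxcl10, reported 1), 1 for the Grem1 cluster (Cxcl2, reported 0), 3 for Grem1 against Mgp in Ptger4-ON and 2 in Ptger4-OFF (reported 5 in each). Without the cell with most UMIs of each gene it was 0 for the Mgp cluster, as Cxcl10 then had 19 UMIs, and 2 for epithelial-like cells (Cxcl2 and Cxcl10, reported 1). A minimum of 10 UMIs gave 1 for the Grem1 cluster (Cxcl10). For epithelial-like cells, doublets kept gave 2, equal weight for each cell 2 and leaving out barcodes over 50000 UMIs 3. Of the recomputed log2 ratios 620 stayed within the counting interval of the reported value and 40 moved beyond it. No ratio that was past 2-fold as reported changed sign, but some smaller ones did. The log2 ratio of Cxcl10 for Grem1 against Mgp in Ptger4-OFF ran from -1.35 to 0.59. That of Cxcl2 between libraries in the Grem1 cluster ran from -1.14 to 0.8. Of the shares of cells thinned to 500 UMIs or not thinned, 83 moved beyond their interval and 45 did not. The shallow cluster, added to the Grem1 cluster as an alternative chosen after the data were seen, changed no count by over 1.5 times. Depth limits Cxcl10, Cxcl2 and all receptors, which rest on few UMIs, and the Grem1 cluster, which rests on 53 and 52 cells.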
